A study of Mus musculus with 2 samples.

Results

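The miRNA genes Mir143, Mir145a, Mir199a-1, Mir199a-2, Mir199b and Mir214, known from smooth muscle and mesenchymal cells, were followed in the newborn mouse adrenal gland. They were chosen by symbol, and are 6 of the 1973 miRNA gene rows in the count tables. The material was whole adrenal tissue of the strain B6NCrl at postnatal day 0, with 2 adrenals of 1 pup in each library, and RNA under 30 nucleotides was sequenced. The 2 libraries, pup 2 and pup 1, form a single group of littermates with no treatment. Each sample is labelled as a pup of its own, yet the donor identifier is the same for both, so the spread between the libraries could be technical. Sex was not recorded.

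Mir143 and Mir145a lie close together and are known as a cluster transcribed as 1 precursor in vascular and visceral smooth muscle, where their products favour the contractile state. Mir214 and Mir199a-2 lie in the noncoding transcript Dnm3os, a locus known from embryonic mesenchyme and needed for normal skeletal growth in mice. In the adrenal, cells of mesenchymal origin form the capsule, the vessel walls and the stroma between the steroid-producing cells.

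All 6 genes had counts in both pups, and their levels ran from 16985 to 2.38 CPM, the counts of a gene scaled to a same-strand miRNA gene total of 1000000. Together they took 2.29% of the miRNA gene counts in pup 2 and 1.83% in pup 1, a mean of 2.06% ± 0.320 (SD, n = 2). Mir143 alone gave 84.3% of the members' counts in pup 2 and 80.2% in pup 1. In whole tissue, more cells of a type and more RNA per cell cannot be told apart.

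The sequences of the miR-199 genes are shown first because the same mature RNA is encoded at several of these loci, and reads that align to several places are not in the gene counts. RefSeq (GRCm38.p6) had sequences for 4 of the 6 members, and Mir143 and Mir145a are described by their counts only. Capitals mark the mature miRNAs within each hairpin, written 5′ to 3′.
Mir199a-1: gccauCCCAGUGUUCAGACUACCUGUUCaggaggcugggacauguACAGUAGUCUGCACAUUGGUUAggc
Mir199a-2: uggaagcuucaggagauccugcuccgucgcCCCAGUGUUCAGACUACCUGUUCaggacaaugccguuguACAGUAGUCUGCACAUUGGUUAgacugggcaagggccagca
Mir199b: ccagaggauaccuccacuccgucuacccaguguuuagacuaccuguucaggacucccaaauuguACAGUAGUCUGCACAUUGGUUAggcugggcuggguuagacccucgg
Mir214: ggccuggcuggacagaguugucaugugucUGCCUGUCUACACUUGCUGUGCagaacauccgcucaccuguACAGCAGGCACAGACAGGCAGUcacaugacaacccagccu

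The 3p arm of the miR-199 genes, listed as miR-199a-3p and miR-199b-3p, was letter for letter the same in 3 genes, Mir199a-1, Mir199a-2 and Mir199b. The 5p arm, miR-199a-5p, was the same in Mir199a-1 and Mir199a-2. Both arms of Mir214 occurred in no other hairpin of the table. Capitals mark the seed, bases 2 to 8, which pairs with target transcripts.
miR-199a-5p: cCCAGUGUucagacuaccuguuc
miR-199a-3p: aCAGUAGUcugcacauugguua
miR-214-5p: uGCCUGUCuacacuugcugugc
miR-214-3p: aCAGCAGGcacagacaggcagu
miR-761: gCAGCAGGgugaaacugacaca

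The seed of miR-214-3p was shared with 1 gene outside the 6, Mir761 on chromosome 4, whose mature sequence stands last above. Mir761 had 0 counts in both libraries, and a floor of 3 counts is 0.902 CPM for pup 2 and 2.65 CPM for pup 1. No other mature sequence annotated in the table had the seed of miR-199a-5p or miR-214-5p, and that of miR-199a-3p occurred in the annotated 3p arms of the 3 miR-199 genes. The table lists the 3p arm alone for Mir199b.

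The Mir199b hairpin differed from miR-199a-5p by 1 of 23 bases, the substitution C10U counted from the 5′ end of miR-199a-5p. The base is in capitals here and lies outside the seed, so the Mir199b stretch holds the seed letters of miR-199a-5p too.
miR-199a-5p: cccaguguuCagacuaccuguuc
Mir199b stretch: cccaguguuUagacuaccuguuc

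On chromosome 2 the Mir199b stretch spans chr2:32318485-32318507, plus strand. Between Mir199a-1 and Mir199a-2 the shared runs were 27 bases over the 5p arm and 26 bases over the 3p arm. The run over the 3p arm was 28 bases between Mir199a-1 and Mir199b and 27 bases between Mir199a-2 and Mir199b. A read of miR-199a-5p is therefore shared even if it runs up to 4 bases past the 3′ end, whereas 1 extra base at the 5′ end sets Mir199a-1 and Mir199a-2 apart. Of all windows of 22 bases in a hairpin, 13 of 49 recurred in another hairpin for Mir199a-1, 12 of 89 for Mir199a-2, 8 of 89 for Mir199b and 0 of 89 for Mir214.

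Mir143, the leading miRNA of the smooth muscle cluster, had 64113 counts or 19266 CPM in pup 2 (95% interval 19119 to 19414) and 16641 counts or 14704 CPM in pup 1 (14483 to 14927). It was high in both libraries, with a mean of 16985 ± 3226 CPM (SD, n = 2), rank 17 of 1973 gene rows. Intervals for a single library are exact Clopper-Pearson intervals and cover counting error only, since reads amplified by PCR are not independent molecules. Mir143 (ENSMUSG00000065445.2) lies at chr18:61649196-61649258 on the minus strand of mm10, in no other annotated gene and 366 bases downstream of the long noncoding RNA Carmn.

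Mir145a, its neighbour, which is known to repress factors that hold smooth muscle in a proliferating state, had 1697 counts or 509.96 CPM in pup 2 and 467 counts or 413 CPM in pup 1. Both libraries were low beside Mir143, and the mean of 461 ± 68.8 CPM (SD, n = 2) placed Mir145a at rank 116. Mir145a (ENSMUSG00000065592.1) lies at chr18:61647825-61647894, 1301 bases from Mir143 on the same strand. Within pup 2 the counts of Mir143 were 37.8 times those of Mir145a (95% interval 36.0 to 39.7), and within pup 1 they were 35.6 times (32.5 to 39.1). The intervals of the 2 libraries overlap, which is no test, and no difference in this ratio between them is claimed. No sequence was at hand for Mir143 or Mir145a, so uniqueness of their arms was not checked. The ratio compares counted reads only.

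Mir214, the miRNA of Dnm3os with mature arms of its own, had 9912 counts or 2979 CPM in pup 2 (95% interval 2920 to 3038) and 3561 counts or 3146 CPM in pup 1 (3044 to 3251). The pups lay close together, with a mean of 3063 ± 119 CPM (SD, n = 2) and rank 46. Mir214 (ENSMUSG00000065516.1) occupies chr1:162223368-162223477, plus strand, in an exon of Dnm3os and opposite an intron of Dnm3, which encodes a dynamin.

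Mir199a-2, in the same transcript, had 105 counts or 31.6 CPM in pup 2 (95% interval 25.8 to 38.2) and 24 counts or 21.2 CPM in pup 1 (13.6 to 31.6). It was far below Mir214 in both libraries, with a mean of 26.4 ± 7.32 CPM (SD, n = 2). Mir199a-2 (ENSMUSG00000070126.1) lies at chr1:162217814-162217923, 5444 bases upstream of Mir214, also in an exon of Dnm3os. The counts of Mir214 were 94.4 times those of Mir199a-2 within pup 2 (77.9 to 116) and 148 times within pup 1 (99.6 to 232). The intervals overlap, which is no test of a difference, and the ratio rests on only 24 counts of Mir199a-2 in pup 1. Since both mature arms of Mir199a-2 are encoded elsewhere as well, the ratio compares counted reads and not amounts of the mature RNAs.

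Mir199b, which carries the same 3p arm, had 227 counts or 68.2 CPM in pup 2 (95% interval 59.6 to 77.7) and 49 counts or 43.3 CPM in pup 1 (32.0 to 57.2). Its counts were above those of Mir199a-2 in both libraries, with a mean of 55.8 ± 17.6 CPM (SD, n = 2). Mir199b (ENSMUSG00000092807.1) occupies chr2:32318460-32318569, plus strand, opposite an intron of Dnm1, another dynamin gene.

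Mir199a-1 had 7 counts or 2.10 CPM in pup 2 (95% interval 0.846 to 4.33) and 3 counts or 2.65 CPM in pup 1 (0.547 to 7.75). It was the only member under a mean of 10 CPM and stood at the counting floor in pup 1. Mir199a-1 (ENSMUSG00000065547.1) lies at chr9:21496495-21496564 on the minus strand, opposite an intron of the dynamin gene Dnm2. All 3 miR-199 genes thus lie opposite introns of dynamin genes. Their counts gave a sum of 102 CPM for pup 2 and 67.2 CPM for pup 1, so Mir214 held 29.2 times their summed counts in pup 2 and 46.9 times in pup 1. Reads of the shared miR-199 arms that aligned to several places are not in this sum, whereas both Mir214 arms occurred in no other hairpin of the RefSeq table. The ratio therefore compares counted reads and not amounts of the mature RNAs.

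**Figure D1:**
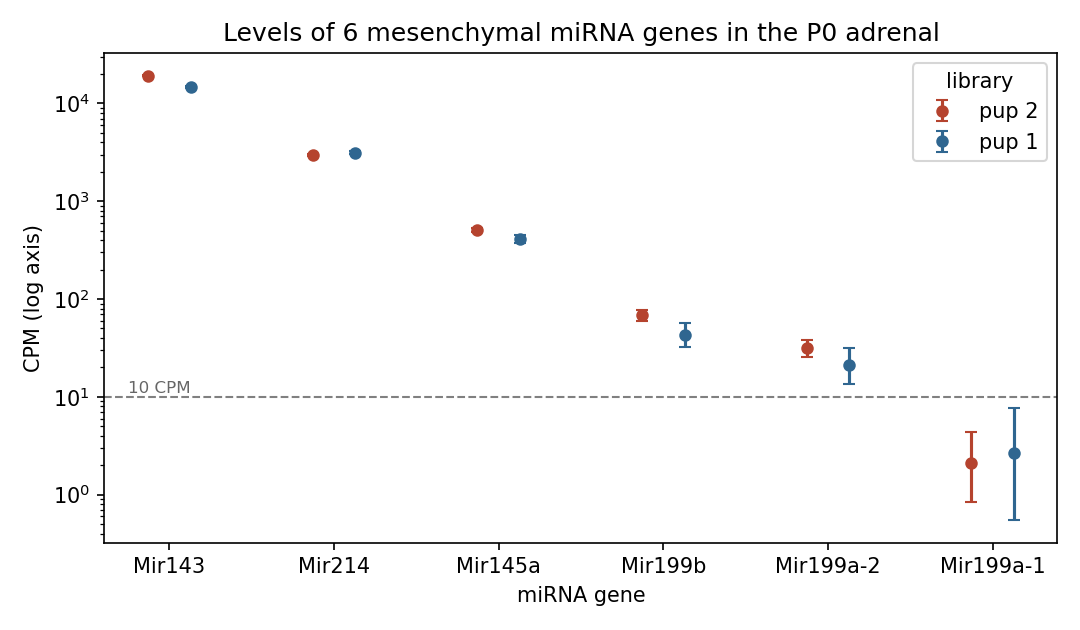
CPM on a log axis for each of the 6 genes, with a point per library (pup 2 left of pup 1) and bars for the exact 95% Clopper-Pearson interval; the dashed line marks 10 CPM. Levels run from Mir143 at 19266 and 14704 CPM to Mir199a-1 at 2.10 and 2.65 CPM, and the points of neighbours in the order do not overlap over the 2 libraries, although the bars of Mir199b in pup 1 and Mir199a-2 in pup 2 do.

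By mean CPM the order was Mir143, Mir214, Mir145a, Mir199b, Mir199a-2 and Mir199a-1, and the values of the 2 libraries did not overlap between any neighbours in it. A mature miRNA is read whole by 1 read, so counts were not divided by length. Divided by the annotated length of 63 to 110 bases, the order was the same, and Mir143 stood 9.68 times above Mir214 per base and 5.55 times above it in CPM. With 2 libraries the spread is poorly known, and 2 values a gene give no test. The smallest step was that from Mir199b to Mir199a-2, with 2.11 times the mean CPM.

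The 4 members with a sequence were set beside all miRNA genes with a mature sequence in the RefSeq table, 858 of the 1973 rows. Genes were classed by whether their mature sequences also occur in another hairpin of that table. It held 1005 hairpins, so an arm called unique may still be encoded at a locus with no listed sequence. No listed arm was unique in 34 genes, of which 9 had a count, and Mir199b, Mir199a-2 and Mir199a-1 stood at places 3, 6 and 8 among those 9. Mir199b is in this class by its listed 3p arm. Its 5p stretch differs from miR-199a-5p by C10U, and whether reads from this stretch were placed uniquely was not tested. Every listed arm was unique in 775 genes, Mir214 among them, and 477 of these had a count. The most abundant gene with no unique arm had 887 CPM, against 91954 CPM for the most abundant gene with every arm unique. These maxima come from 9 and 477 genes, so the larger class was likely to hold the higher value whatever the cause. Among genes with a count the medians ran the other way, with 27.1 CPM where no arm was unique and 4.61 CPM where every arm was. Where some arms were unique, 46 of 49 genes had a count, with a median of 28.7 CPM among those and a maximum of 4353 CPM. Reads that aligned to several places numbered 2032469 in pup 2 and 785013 in pup 1, or 0.611 and 0.694 for each counted read. How many of them were miR-199 was not tested, and levels of the miR-199 genes are those of their uniquely placed reads.

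**Figure D2:**
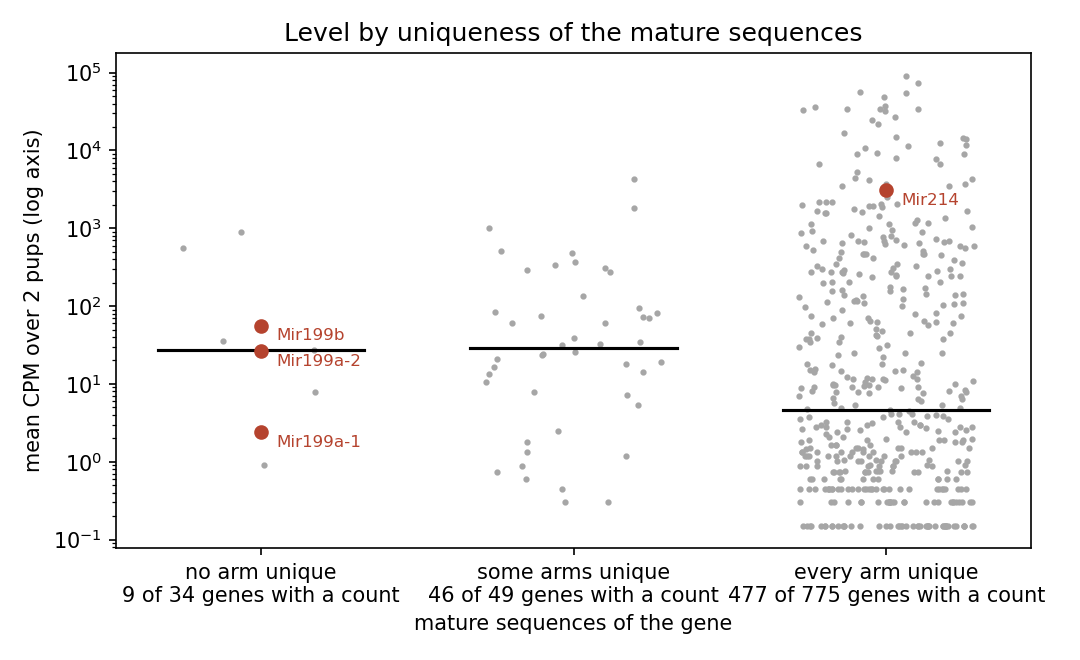
Mean CPM over the 2 pups on a log axis for genes with a count. Classes show whether none, some or every mature sequence listed for the gene is unique to its hairpin among those of the RefSeq table. Black bars are medians, and members are labelled in red. The 3 miR-199 genes are among the 9 genes with a count and no unique listed arm (for Mir199b the 3p arm alone is listed), and Mir214 at 3063 CPM is in the class with every arm unique.

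Unequal counts between neighbouring miRNA genes were common. Of 82 pairs of miRNA genes that are direct neighbours in the same orientation, at most 10 kb apart and each averaging at least 10 CPM, the median pair differed 5.40-fold, a log2 level ratio of 2.43. Mir143 and Mir145a differed by 5.20 on the log2 scale, and 15 of the 82 pairs differed by more. Mir214 and Mir199a-2 differed by 6.81, and 1 pair differed by more. Both values have a prior of 1 CPM. They compare counted reads, and both mature arms of Mir199a-2 are encoded elsewhere as well. How far multi-mapped reads affect the order of the pairs was not tested.

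**Figure D3:**
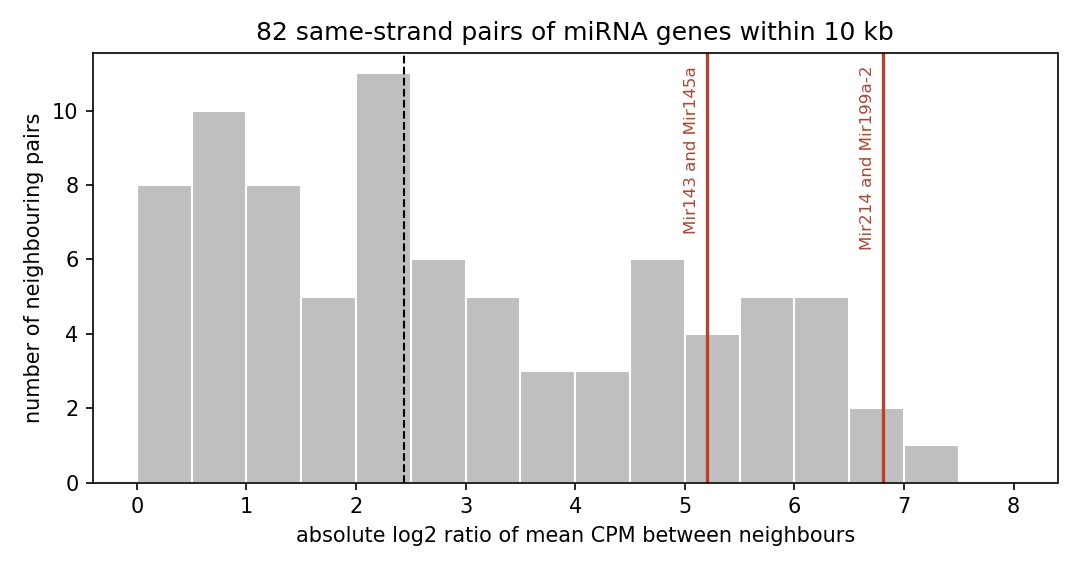
Number of adjacent same-strand pairs by the absolute log2 ratio of their mean CPM, for the 82 pairs with both genes at 10 CPM or more; the dashed line is the median and red lines are the pairs among the 6 genes. Mir143 with Mir145a lies at 5.20 and Mir214 with Mir199a-2 at 6.81, against a median of 2.43. Levels are of counted reads, and both mature arms of Mir199a-2 are encoded elsewhere as well.

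The littermates were compared in the same genes. Of the 5 members averaging at least 10 CPM, 0 lay past 2-fold between pup 2 and pup 1, and 5.28% of the 284 genes at that level did (3.52% higher and 1.76% lower in pup 2), so a count of 0 among 5 genes is near that background. Their log2 ratios of pup 2 over pup 1, with a prior of 1 CPM, had a median of 0.39, beside a median of 0.08 and an upper quartile of 0.36 over the 284 genes, and 4 of 5 were higher in pup 2, as were 58.1% of the 284. With TMM scaling 5 of 5 members and 65.8% of the 284 genes were higher. Each pup has 1 library, so there is no test and no p-value.

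Mir143 was 1.31-fold higher in pup 2 (exact conditional 95% interval 1.29 to 1.33), a log2 ratio of 0.39 that exceeded the ratio of 76.8% of the 284 genes. Intervals of the pup ratios cover counting error only. The libraries differed by far more than that, with a chi-square per degree of freedom of 182 over the 284 genes. An interval that leaves out 1 is therefore no evidence of a difference between animals. Mir145a was 1.24-fold higher in pup 2 (1.11 to 1.37). These cluster neighbours had log2 ratios 0.09 apart, where the median difference over the 82 adjacent pairs was 0.38, and 72 pairs differed by more. Many of the pairs share a gene, and some hold genes near 10 CPM, where counting error is larger than for Mir143 and Mir145a. Joint regulation of the 2 genes was not tested. Mir214 was 0.947 of its pup 1 level in pup 2 (0.911 to 0.984), a log2 ratio of -0.08 that turned to 0.03 with TMM scaling, so no direction is given for it. Mir199b was 1.58-fold higher in pup 2 (1.15 to 2.19), with a log2 ratio of 0.64 that exceeded the ratio of 89.4% of the 284 genes. For Mir199a-2 at 1.49-fold (0.948 to 2.43) and Mir199a-1 at 0.794 (0.181 to 4.76) the interval included 1. For these 2 genes the libraries did not differ beyond counting error. The log2 ratios of Mir214 and Mir199a-2 lay 0.63 apart, and 18 of the 82 pairs differed by more.

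**Figure D4:**
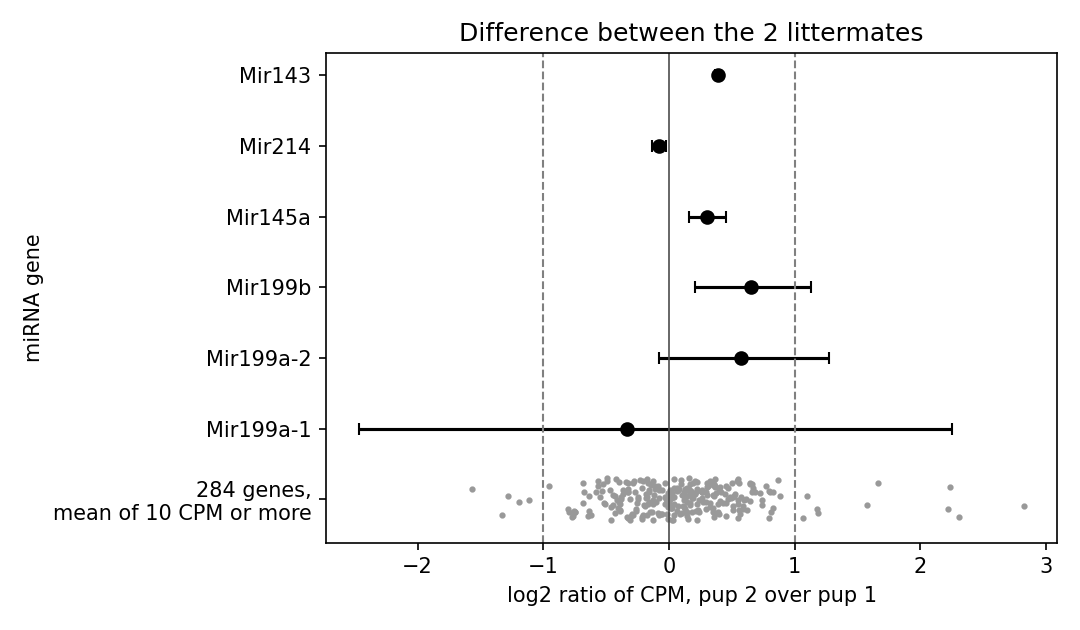
Log2 ratio of CPM, pup 2 over pup 1, for the 6 genes with the exact 95% counting interval (no prior added), and below them the 284 genes averaging at least 10 CPM (prior of 1 CPM); dashed lines mark 2-fold. The 5 members of that level have ratios from 0.947 to 1.58, inside the dashed lines, and the interval of Mir199a-1 spans 0.181 to 4.76.

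Some markers of other cell types also differed between the libraries, and their part in the ratios above was not tested. Striated muscle miRNAs had a count in 6 of 9 matched genes and had a sum of 423 CPM for pup 2 and 87.5 CPM for pup 1. Nearly all of that sum was Mir206, with 411 CPM in pup 2 and 82.2 CPM in pup 1. Mir206 was the only matched gene of this list with a mean of at least 10 CPM, so the difference is that of a single gene. Mir133a-1 and Mir133a-2, loci of a shared mature sequence, were at 0 in both. The endothelial Mir126a had 102288 CPM for pup 2 and 81621 CPM for pup 1. Epithelial miRNAs, with a count in 7 of 7 genes, had a sum of 1309 CPM for pup 2 and 947 CPM for pup 1. Their leader Mir203 had 667 CPM in pup 2 and 710 CPM in pup 1, while Mir429 with 299.6 and 93.7 CPM and Mir200b with 136 and 28.3 CPM were over 2-fold higher in pup 2, and the 5 genes at 10 CPM had a median log2 ratio of 0.87. The hepatocyte miRNA Mir122 had 4081 CPM for pup 2 and 2979 CPM for pup 1. Leukocyte miRNAs, with 3 of 4 listed genes matched, a count in all of these and Mir223 in the lead, had a sum of 1023 CPM for pup 2 and 866 CPM for pup 1. Of these genes 2 were higher and 1 lower in pup 2. Erythroid miRNAs, 3 of 3 and led by Mir451a, had a sum of 337 CPM for pup 2 and 339 CPM for pup 1, with 2 genes higher and 1 lower in pup 2. Neuroendocrine miRNAs, which fit the medulla of the labelled organ, had counts in 4 of 4 genes, of which 2 were higher and 2 lower in pup 2. Mir375 led with 30415 CPM in pup 2 and 37586 CPM in pup 1, and Mir7b had 2293 CPM in pup 2 and 1557 CPM in pup 1.

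Among other miRNAs studied in smooth muscle and fibroblasts, 20 of 22 listed genes were matched and 18 reached a mean of 10 CPM. Of these, 14 were higher and 4 lower in pup 2, with a median log2 ratio of 0.14 and 0 past 2-fold, beside the 58.1% higher and 5.28% past 2-fold of the 284 genes. TMM scaling made it 15 higher and 3 lower. The sum of the list was 227374 CPM for pup 2 and 231426 CPM for pup 1, and its member Mir23b was also lower in pup 2, with a log2 ratio of -0.17. The most abundant were Mir10a, of a Hox cluster, with 74491 ± 2082 CPM, Mir23b with 54901 ± 4581 CPM and Mir10b with 34446 ± 1096 CPM (SD, n = 2 each). Mir140, known from cartilage, had 1792 ± 161 CPM, and Mir195a had 588 ± 129.9 CPM; both were named after their values were seen. Mir145b, a gene of similar name at another locus, had 0 counts in both libraries, the floors being those given for Mir761.

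By Euclidean distance of log2 CPM over the 2 libraries, the genes nearest to Mir143 were Mir411 at 0.10 and Mir99b at 0.28. Those nearest to Mir214 were Mir17 at 0.30 and Mir34c at 0.38, and those nearest to Mir145a were Mir181a-1 at 0.10 and Mir503 at 0.17. Mir199b stood nearest to Mir449a at 0.16 and Mir32 at 0.25, and Mir199a-2 to Mir20b at 0.12 and Mir450-2 at 0.20. With 2 points a gene this says only that the levels were alike. Counts on the strand opposite the genes were 2 for Mir214 in pup 2 and 0 for every other member and library.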

How the data were processed

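The deposited values are raw counts of reads for each miRNA gene, with a table for each library and no pooling. The notes deposited with them name assembly mm10 and GENCODE annotation M4. The aligner is not given in the sources used here. Row names show that multi-mapped reads were kept out of the gene rows. The same-strand depth was 3327743 counts for pup 2 and 1131762 counts for pup 1, which sets the counting precision. Multi-mapped reads were 32.2% and 34.9% of all reads, and the 4 classes of reads in rows that name no gene were left out of library sizes. Across the 284 genes averaging at least 10 CPM, chi-square per degree of freedom between the libraries was 182, so they do not look like a single library deposited again.

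CPM, ratios and exact intervals were computed here with Python 3.11.15 and scipy 1.17.1. Scaling factors came from edgeR 4.0.16 (TMM) and DESeq2 1.42.0. The ratio script was checked on simulated Poisson counts. These lack the spread beyond counting error seen between the 2 libraries, so the check covers the arithmetic only. Identifiers were matched without version to GENCODE M21 on the same assembly (2 of 6 members had another version), and sequences to RefSeq. The members, lists, thresholds and naming rule were chosen with earlier results of these data known. Named genes are the 6 members, the 2 genes nearest in level to each member at 10 CPM or more, the 3 most abundant other smooth muscle and fibroblast miRNAs and the leading gene of each cell type list; Mir761, Mir145b, Mir133a-1, Mir133a-2, Mir140, Mir195a, Mir200b, Mir429 and Mir7b were named outside this rule, after their values were seen. No sample was left out.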

Additional observations from a re-analysis of the deposited data

How the results depend on the processing

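No paired analysis was possible because the libraries form a single group. The genes past 2-fold, 15 of 284, became 85 of 635 with no filter on low values, 4 of 188 at a mean of 100 CPM and 55 at 1.5-fold, and 11 with a prior of 5 CPM; at 1.5-fold 1 member, Mir199b, was past the threshold, where 0 were at 2-fold. TMM scaling raised the median log2 ratio of all 284 genes by 0.10. It put Mir143 at 0.50 and Mir214 at 0.027; DESeq2 size factors put Mir143 at 0.42, and all reads as denominator put Mir143 at 0.46 and Mir214 at -0.013. With all reads as denominator, which lowers every level by construction, Mir143 had 8784 CPM, Mir214 had 1578, Mir145a had 238, Mir199b had 28.9, Mir199a-2 had 13.7 and Mir199a-1 had 1.22. Over all genes of a class the median was 0 CPM with no listed arm unique and 0.442 CPM with every arm unique, against 27.1 and 4.61 CPM among genes with a count. With 2 libraries, leaving out either gives the value of the other pup, which the report prints, and is no check of stability. The depth limits Mir199a-1, with 7 and 3 counts, and the pup ratios of Mir199a-1 and Mir199a-2.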
